A study of Rattus norvegicus with 8 samples.

Results

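One cultured fetal rat testis exposed to 1 µM MEHP was compared with a vehicle pool on 2 Agilent Whole Rat Genome arrays, which are 2 of the 8 arrays of the series. MEHP, mono-(2-ethylhexyl) phthalate, is the metabolite through which the plasticizer DEHP acts on the testis. The methods describe whole testes of Sprague-Dawley rat fetuses explanted into culture, and the labels give 72 h with the agent or with vehicle alone. The reference on every array was RNA pooled from 3 testes cultured in DMSO, the vehicle, so no vehicle testis was measured on its own. The other 6 arrays hold 3 testes at 10 µM MEHP, 2 arrays for each, read against the vehicle reference too, which the methods describe as a pool without saying whether 1 preparation served all arrays. No strain, allele or treatment other than the dose separated the treated groups, and both arrays of the 1 µM testis carried the same RNA. With 1 testis at 1 µM there is no biological replicate and therefore no test, and the spread given below is that between 2 hybridizations.

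The labels put MEHP on the green dye Cy3 on both arrays. By the methods, however, each pair of hybridizations was a dye exchange. The first hybridization was therefore read with MEHP on Cy3 and the repeat with MEHP on Cy5, which is the likely direction of every ratio given here. Over the 4100 genes whose signal was well above background in both channels of both arrays, the 2 hybridizations so read correlated across genes with Pearson r = 0.504, and genes are not independent replicates. Over all 9608 genes used the coefficient was −0.157, and over the 5508 with a channel near background it was −0.145. Each coefficient has the opposite sign if the repeat is not turned. All ratios are log2 of MEHP over vehicle, so that 1 stands for a doubling.

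In the fetal testis, Sertoli cells form the cords and secrete AMH, and the Leydig cells between the cords take up or make cholesterol and convert it to androgens. Leydig cells also secrete INSL3, the hormone that drives the first phase of testis descent. Cholesterol is carried into the mitochondrion by StAR, cut by CYP11A1 with electrons passed on by ferredoxin reductase and ferredoxin, and later converted by CYP17A1. Cells with too little sterol switch on the synthesis enzymes and the uptake genes together, and interferons switch on a large set of antiviral and antigen-presenting genes through IRF and related factors.

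Of 41012 probes, 10844 gave a signal well above background on each of the 2 arrays, in 1 channel or in both, and they stood for 9608 gene or transcript names. A gene was counted as moved when its brightest probe lay at least 1.5-fold, 0.585 on the log2 scale, from the vehicle pool in the same direction on both hybridizations. By this rule 352 genes were higher, 3.66% of those used, and 284 were lower, 2.96%, together 6.62%. A further 1376 genes passed the limit in opposite directions on the 2 arrays. In 1264 of these the red dye was the brighter on both arrays. Where both channels were well above background on both arrays, 136 of 4100 genes were higher, 3.32%, and 130 were lower, 3.17%, together 6.49%, against 35 in opposite directions. For these genes the 2 hybridizations differed by a median of 0.23, against 1.09 for the 5508 genes with a channel near background. The part of the dye in the ratios of the dim genes was not tested.

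**Figure D1:**
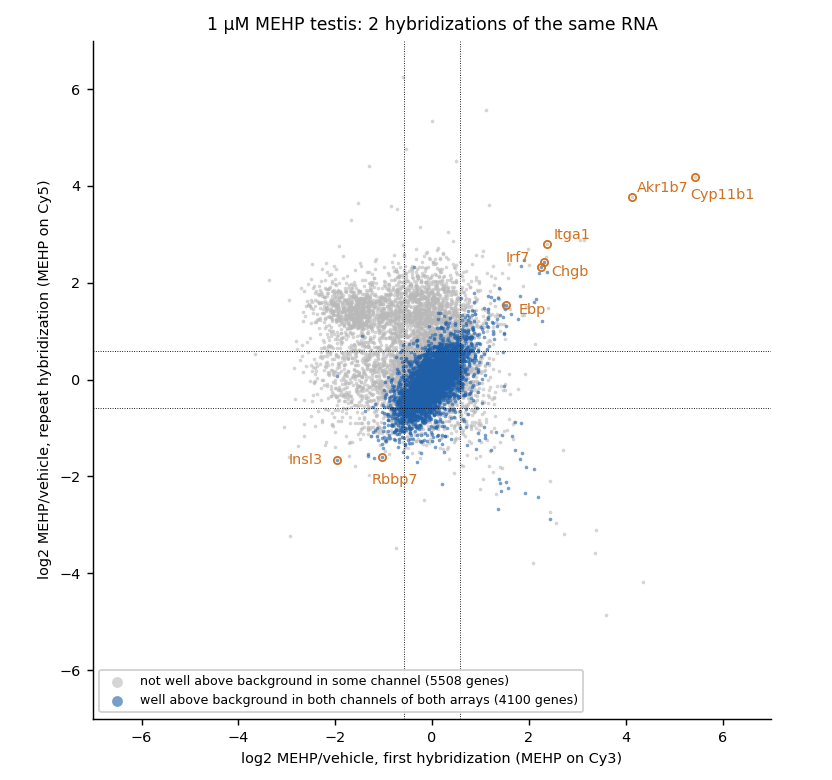
Log2 ratio of MEHP over vehicle of the 1 µM testis on the first hybridization (x axis) and on the repeat (y axis), 1 point for each of 9608 genes, with dotted lines at the 1.5-fold limit. The 4100 genes measured in both channels of both arrays (blue) lie along the diagonal, the dim genes (grey) spread to the upper left, where the red dye was the brighter on both arrays, and Cyp11b1 and Akr1b7 lie farthest to the upper right among the genes marked in orange.

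The tissue carried markers of fetal testis. Amh was well above background in both channels of both arrays, with log2 ratios of −0.31 and 0.09, as were Sox9, at 0.69 and 0.55, Inha, at −0.91 and −0.56, and Ctsl, at 0.07 and −0.26. Insl3 was measured in both channels too. Of 16 germ cell markers on the array, 2 could be used, and Pou5f1, Kit, Dppa3 and Nanos3 were not well above background in any channel. Of 12 peritubular markers none moved among the 7 used, of 15 endothelial markers none among the 3 used, and of 15 macrophage and leukocyte markers none among the 7 used. With 6.62% of all genes used past the limit in either direction, such short lists can hold none, and nothing is drawn from these zeros. Whether a lower value of a cell type's genes means fewer such cells or less RNA in each cannot be told apart in RNA of a whole testis.

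Genes of the interferon response made up much of the upper end. Of the 12 genes with the highest mean ratio among those measured in both channels of both arrays, Irf7, Oasl2, Ifi27l2b, Oas1a and Ifi44 are interferon-induced, Psmb9 is the interferon-induced subunit of the immunoproteasome, and Cfb and C1s belong to complement. The regulatory sequences of 4 of them are shown. These are the 4 of the 12 whose windows held the motif described next, so that each holds a match is not a result. Each line gives the 250 bases before the gene's start in RefSeq on build GRCr8, 5′ to 3′ on the strand of the gene, and the capitals mark matches on either strand to GAAA, any 2 bases and GAAA again, the core of the interferon-stimulated response element.
Irf7, chr1:205800024-205800273, minus strand: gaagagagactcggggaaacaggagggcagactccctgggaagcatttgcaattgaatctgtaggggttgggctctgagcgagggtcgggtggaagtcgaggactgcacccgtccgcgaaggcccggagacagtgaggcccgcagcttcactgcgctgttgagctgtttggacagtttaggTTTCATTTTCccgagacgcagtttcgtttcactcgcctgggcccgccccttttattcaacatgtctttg
Oasl2, chr12:47383186-47383435, minus strand: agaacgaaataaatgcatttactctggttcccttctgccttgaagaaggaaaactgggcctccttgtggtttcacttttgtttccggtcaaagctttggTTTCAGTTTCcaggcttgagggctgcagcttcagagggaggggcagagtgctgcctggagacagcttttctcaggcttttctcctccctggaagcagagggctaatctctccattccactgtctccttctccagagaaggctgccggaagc
Oas1a, chr12:41330216-41330465, plus strand: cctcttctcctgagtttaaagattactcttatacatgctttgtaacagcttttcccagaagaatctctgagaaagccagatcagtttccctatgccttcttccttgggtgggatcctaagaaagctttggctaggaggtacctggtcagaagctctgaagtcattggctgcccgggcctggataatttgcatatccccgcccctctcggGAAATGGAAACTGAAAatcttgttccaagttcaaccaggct
Ifi44, chr2:243303841-243304090, minus strand: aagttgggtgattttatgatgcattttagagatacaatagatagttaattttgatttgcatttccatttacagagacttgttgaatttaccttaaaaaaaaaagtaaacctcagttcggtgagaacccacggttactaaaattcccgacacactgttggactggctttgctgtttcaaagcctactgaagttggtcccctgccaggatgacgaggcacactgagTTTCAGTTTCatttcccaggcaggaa

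The matched letters began 69 bases before the start of Irf7, 151 before that of Oasl2 and 26 before that of Ifi44, in all of which the motif reads on the opposite strand. In Oas1a a pair of overlapping matches on the strand of the gene began 41 and 35 bases before the start. Of the 12 genes with the highest ratios, 9 had a window in the table and 4 of these held the motif. Over all 168 higher genes with a current symbol, 136 had a window and 23 held it, 16.9%. Among 82 windows of the 98 lower genes, 4 held it, 4.88%, and over all 27457 windows the share was 3.29%. The 23 genes included B2m, Cxcl10, Gbp2, Isg20, Psmb10, Rsad2, Tap2 and Tapbp. A match is a run of letters and not a shown binding site.

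Irf7, the transcription factor that amplifies interferon production, had log2 ratios of 2.26 on the first hybridization and 2.33 on the repeat, a 4.90-fold difference. Its signal was 9130 and 6080 in the MEHP channel and 1906 and 1213 in the vehicle channel, in arbitrary units that hold within this probe only. Isg15, the ubiquitin-like protein that interferon induces, named here through a predicted gene model, gave 2.38 and 2.22. Oasl2, of the family that senses double-stranded RNA, gave 2.20 and 2.21, and Oas1a of the same family 1.51 and 1.45. By the mean of the 2 hybridizations these 4 genes were between 2.79 and 4.93-fold higher. Mx2, an antiviral GTPase, gave 1.56 and 1.49 with the vehicle channel well above background on 1 array of 2.

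Of the 43 genes listed for interferon and inflammation, 41 were on the array and 21 could be used. Among these, 12 were higher past the limit and none was lower, beside 3.66% and 2.96% over all genes used. The median of the 21 mean ratios was 1.14, against 0.03 over all genes used. Cxcl10, the chemokine that interferon gamma induces, gave 0.87 and 1.61, and Cxcl1, a neutrophil chemokine, 1.34 and 1.35. Nfkbia, the inhibitor of NF-κB that NF-κB itself induces, gave 0.92 and 0.76. Of the complement proteins and their inhibitors, C1s gave 1.77 and 1.26, Cfb 2.27 and 1.22, and Serping1 1.12 and 1.16. Il1b, Il6, Tnf, Irf1, Mx1, Ifit1, Ifit3 and Stat2 were on the array but too dim to be used. Ccl2, a monocyte chemokine, gave −0.09 and 1.24 and did not pass the limit on both. With a normexp background correction none of the 21 passed and the median was 0.23. With the background capped at the spot signal 9 passed, and with loess on uncorrected signals 8. Normexp without the cap raised the floor of the red signal on the repeat array, with a first percentile of 2599 against 84.3 on the first. This limit holds for every uncapped normexp count given below.

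Several genes that cut and present antigen on class I molecules were higher too. This list was made after the values were seen and shares B2m and Psmb9 with the interferon list, so nothing is drawn from its count. Of its 25 used members 14 were higher past the limit, none was lower and the median was 0.98. B2m, the light chain of every class I molecule, had 4 probes with means between 1.07 and 1.32. Psmb9 and Psmb10, subunits that replace the standard ones in the immunoproteasome, gave 1.64 and 1.36 and 0.96 and 0.94. Of the other proteasome subunits, Psmb1 gave −0.60 and −0.81 and passed the limit. Psmb5, at 0.13 and −0.13, Psmb6, at −0.71 and −0.52, and Psmb7, at −0.09 and −0.10, did not pass it. The median of all 36 proteasome genes was −0.02. Tap2, which pumps peptides into the endoplasmic reticulum, gave 2.14 and 0.73, and Tapbp, which tethers it to class I molecules, gave 0.93 on both hybridizations. Of the rat class I genes, 9 were higher, from RT1-CE1 at 0.82 and 0.62 to RT1-Cl at 1.16 and 1.47. These genes are near-identical copies, so a probe of one can take up RNA of another and the 9 cannot be counted as separate. Psmb8, the third interferon-induced subunit, gave 0.50 and 4.52, a difference between the arrays that leaves no usable value. Markers of macrophages and other leukocytes had a median of 0.49, with none of 7 used past the limit on both hybridizations and 4 past it on the repeat alone. Their summed signal was 4226 and 3455 in the MEHP channel and 4049 and 2646 in the vehicle channel, and the part of such cells in these ratios was not tested.

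**Figure D2:**
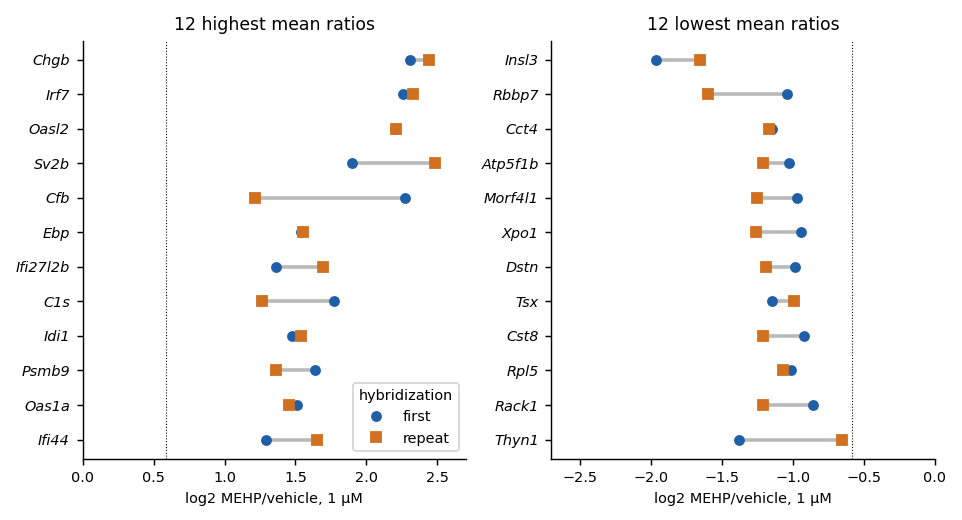
Log2 ratio of MEHP over vehicle at 1 µM on the first hybridization (circles) and the repeat (squares) for the 12 genes with the highest and the 12 with the lowest mean ratio among those measured in both channels of both arrays, with the 1.5-fold limit dotted. Chgb and Irf7 lead on the left and Insl3 on the right, and Cfb shows the widest gap between its 2 hybridizations among the 12 highest.

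Of 22 listed enzymes of cholesterol synthesis 16 could be used, and the median was 0.60. Past the limit 7 were higher and none was lower, beside 3.66% and 2.96% over all genes used. Of the 16, 9 were above 0 on both hybridizations, a count given without the same share over all genes. Adrenal cortex genes, described further on, were higher in the same testis with a median of 3.95, and their part in these ratios was not tested. At the head of the pathway, Hmgcs1, the synthase that makes HMG-CoA, gave 0.97 and 0.75. Mvd, which makes isopentenyl diphosphate, gave 0.94 and 0.60, and Idi1, its isomerase, 1.47 and 1.54, a 2.84-fold difference. Among the later enzymes, Lss, which closes lanosterol, gave 1.25 and 1.08, Msmo1, the methyl sterol oxidase, 0.81 and 0.89, Tm7sf2, a sterol reductase, 0.75 and 1.03, and Ebp, the sterol isomerase, 1.54 and 1.55. Ebp was thus 2.92-fold higher, with signals of 5031 and 3859 against 1733 and 1317. Both isomerases thus had the highest mean ratios of the list and gave nearly the same value on both arrays. Acat2, at 0.39 and 0.44, did not reach the limit. Fdps, at 0.05 and −0.13, lay at the level of the pool although it was bright in both channels. Cyp51 gave 0.00 and 1.67, Sqle −0.55 and 0.40 and Fdft1 −2.23 and 0.79, each with at least 1 dim channel, so their ratios were not settled by these arrays. Idi1 and Hmgcs1 each had another probe whose hybridizations lay on opposite sides of 0. With normexp none of the 16 passed the limit, with the capped background 4 did, and with loess on uncorrected signals 3.

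Sterol sensing and uptake genes showed fewer members past the limit, 4 of 17 used, beside 3.66% higher over all genes. Their median was 0.22. Insig1, the sterol sensor of the endoplasmic reticulum and itself a target of SREBP, gave 1.23 and 1.71, with 3 of its 4 probes above 0 on both hybridizations. Scarb1, the HDL receptor, gave 1.02 and 1.08. Apoe, the lipoprotein of local cholesterol transport, gave 0.85 and 1.08. Srebf1, which encodes a sterol-regulated transcription factor, gave −0.45 and 0.07, and Abcg1, a cholesterol exporter, −0.52 and −0.54, neither past the limit. Srebf2 was not measured well enough to be used. The window before the start of Ebp held CACCCCAC, the core of a sterol response element. It is shown as the only such window of the 7 higher synthesis genes, of which Ebp had the highest mean ratio.
Ebp, chrX:16971212-16971461, plus strand: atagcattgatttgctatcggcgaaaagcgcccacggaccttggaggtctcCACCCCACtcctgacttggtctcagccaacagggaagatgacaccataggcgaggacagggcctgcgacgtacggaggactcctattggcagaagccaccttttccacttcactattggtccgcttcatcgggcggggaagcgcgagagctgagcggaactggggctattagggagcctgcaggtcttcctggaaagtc

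The match began 199 bases before the start. It was the only one among the 7 higher synthesis genes, all with a window, and 2.24% of all windows held these letters on either strand. Neither CACCCCAC nor CAAGGTCA, the NR5A1 element that was searched as well, was found in the 2 windows available for the 4 sensing and uptake genes.

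Genes of steroid synthesis divided. Star gave 1.56 and 2.10 with the vehicle channel well above background on 1 of 2 arrays. Fdxr, the reductase, gave 0.83 and 0.87 and Fdx1, the ferredoxin that passes on its electrons, 1.16 and 1.29, both well above background in all 4 channels. Cyp11a1, the enzyme they feed, gave 0.80 and 0.76 with each channel well above background on 1 array. Hsd11b1, which regenerates glucocorticoid, gave 0.89 and 0.97, while its other used probe lay on opposite sides of 0, at −1.43 and 2.42. Thus 6 of 15 genes used were higher past the limit, beside 3.66% over all genes, and the median was 0.63. Cyp11b1, counted among the 6, could be used through its MEHP channel alone, so nothing is drawn from this count. With both channels required on both arrays, 2 of 7 were higher, beside 3.32% over all genes so measured. Cyp17a1, the enzyme of the step to androgens, was the 1 member below the limit, at −1.23 and −0.98, or 2.15-fold lower, with each channel well above background on 1 array. Hsd3b1, the dehydrogenase between CYP11A1 and CYP17A1, gave 0.94 and 0.17, Por, the electron donor of CYP17A1, 1.18 and 0.45, and Cyb5a, which promotes its lyase step, −0.09 and −0.33. Hsd17b3, the last enzyme of testosterone synthesis, gave −0.29 and 0.08. None of these 4 passed the limit on both arrays. With normexp no steroid synthesis gene passed, and with the capped background 4 were higher and none was lower.

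Insl3 had the lowest mean ratio of all genes with a current symbol that were measured in both channels of both arrays. It was 3.50-fold lower, with log2 ratios of −1.96 and −1.65 and signals of 561 and 337 against 2186 and 1058. Among 14 Leydig markers used, 6 were higher and 2, Insl3 and Cyp17a1, were lower, beside 3.66% and 2.96% over all genes. Besides Star, Scarb1 and Cyp11a1, the higher ones were Pdgfra, at 0.88 and 1.35, Vcam1, at 1.04 on both, and Thbs2, at 1.04 and 2.56, genes that interstitial cells other than Leydig cells also express. Markers of the fetal Leydig cell thus lay on both sides of the vehicle pool. Lhcgr and Nr5a1 could not be used. Among 17 Sertoli markers, none was higher and 1 was lower, Dhh, the ligand by which Sertoli cells signal to Leydig cells, at −1.78 and −1.17. The median of the Sertoli list was −0.11, and its 1 lower member in 17 stands beside 2.96% over all genes.

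Cyp11b1 and Akr1b7, genes known from the adrenal cortex, had the highest mean ratios of all genes used. Cyp11b1, the enzyme that makes corticosterone in the adrenal cortex, gave 5.44 and 4.19. Its signal was 2812 and 2005 with MEHP and 65 and 110 in the pool, not well above background on either array, which puts it at least 10.5-fold higher. Akr1b7, an aldose reductase of the adrenal cortex and vas deferens, gave 4.14 and 3.77, and Mrap, which carries the ACTH receptor to the cell surface, 3.13 and 2.89, each with the pool well above background on 1 array, Mrap being named through a predicted gene model. Cyp11b2 and Mc2r reached that level in the MEHP channel of 1 array and in no vehicle channel, and Cyp21a1 in none. This list of 6 was made after the values were seen, and Cyp11b1 could be used through its MEHP channel alone, so nothing is drawn from the count of its members. The summed signal of the 3 used was 8857 and 6337 with MEHP and 661 and 605 in the pool, and nothing is drawn from it for the same reasons. With normexp none of the 3 passed the limit on both arrays, and with the capped background all did, with a median of 1.80.

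Some genes of chromaffin and neuroendocrine cells, likewise listed after the values were seen, had high ratios. Chgb, a protein of secretory granules, had the highest mean ratio among the genes measured in both channels of both arrays, at 2.31 and 2.44, or 5.18-fold. Sv2b, a synaptic vesicle protein, gave 1.90 and 2.48, and its other 2 probes were too dim to be used. Resp18, a granule protein, gave 1.90 and 1.34, Scn3b, a sodium channel subunit, 1.41 and 1.88, and Ddc, the decarboxylase of catecholamine synthesis, 0.70 and 1.198. These were 5 of 8 used members, and 2 with the capped background. As the list was made after the values were seen, nothing is drawn from this count. Of the defining markers, Th, Chga and Phox2a reached a signal well above background with MEHP on 1 array and in no vehicle channel, and Dbh and Slc18a1 in no channel. The summed signal of the 8 used members, which do not include these 5 markers, was 40268 and 39335 with MEHP against 11282 and 7702. Of the 8, 2 were measured in both channels of both arrays, and nothing is drawn from this sum either. Star, Fdx1, Cyp11a1, Scarb1 and Hsd11b1 are also expressed in the adrenal cortex, and the part of adrenal RNA in their ratios was not tested. Testin, a protein secreted by Sertoli cells, likewise had a pool signal not well above background on either array and gave 3.06 and 2.89, or at least 2.54-fold higher.

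**Figure D3:**
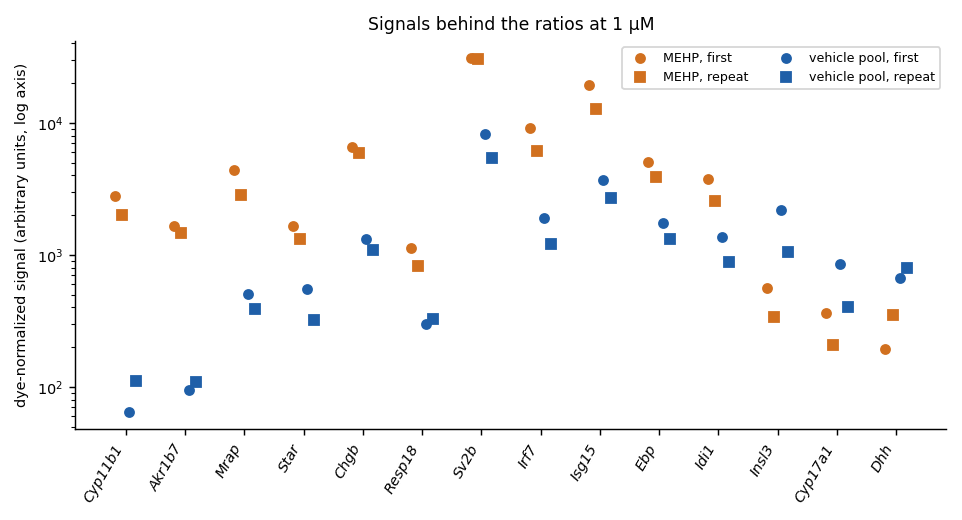
Dye-normalized signal in arbitrary units (log axis) of 14 probes at 1 µM, with MEHP in orange and the vehicle pool in blue, circles for the first hybridization and squares for the repeat. Each probe is to be read on its own: the pool lies near 100 for Cyp11b1 and Akr1b7, whose MEHP signals lie between 1469 and 2812, and the order of the colours is turned for Insl3, Cyp17a1 and Dhh.

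Genes of the extracellular matrix tended upwards. Of 34 members used, 24 were above 0 on both hybridizations and 1 below. The same share over all genes is not given here, so nothing is drawn from these counts of signs. Past the limit 7 were higher and none was lower, beside 3.66% and 2.96% over all genes used. The median was 0.47, against 0.03 over all genes used. Col1a1, the main chain of type I collagen, gave 1.40 and 1.34, and its other 2 probes had means of 0.84 and 0.92. Col3a1 gave 0.77 and 0.87, Col5a1 0.73 and 1.33, Nid2 of the basement membrane 0.71 and 1.05, Lama2 0.89 and 0.75, Fbln1 0.77 and 0.80, and the gelatinase Mmp2 0.66 and 0.60. Fn1, at 0.47 and 0.69, and Bgn, at 0.31 and 0.49, fell short of the limit on at least 1 array. Serpinh1, the chaperone specific to collagen, gave 0.74 and 0.70. With the background capped, or with loess on uncorrected signals, 1 matrix gene passed the limit.

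Among chaperones, those higher past the limit were Hspa5, the chaperone of the endoplasmic reticulum, at 0.82 and 0.62, Hspa8 of the cytosol, at 1.00 and 0.74, the mitochondrial pair Hspd1, at 0.75 and 0.66, and Hspe1, at 0.73 and 0.88, and Hspb1, at 0.71 and 0.96. With Serpinh1 these were 6 of 33 used, beside 3.66% higher over all genes, and the median was 0.19. With the capped background no chaperone passed in either direction. The other used probes of Hspa8 and Hspd1 were all below these values, and 1 probe of Hspd1 gave −0.46 and −0.77. Hspa9, the mitochondrial HSP70, gave −0.59 and −0.35. Of the 8 subunits of the cytosolic chaperonin CCT, which folds actin and tubulin, 2 were lower past the limit, beside 2.96% over all genes. This list was made after the values were seen, so nothing is drawn from its count. Cct4 gave −1.15 and −1.17 and Cct5 −0.66 and −1.09, whereas Cct7, at −0.47 and −1.31, passed on the repeat alone. By their brightest probes Cct8, at 0.18 and 0.26, and Cct3, at 0.11 and 0.02, were near the pool. Their other used probes gave −2.02 and 0.06 for Cct8 and −0.57 and −1.10 for Cct3. Cct2 gave 0.03 and −0.21 with its brightest probe and −0.75 and −1.05 with the other. The values of these 3 subunits thus depended on the probe, whereas the other probe of Cct5 gave −0.76 and −1.17. Hdac7 gave 1.26 and 0.73. Nr4a1, an orphan receptor that acute hormone signals induce, gave 1.15 and 1.40, and Ddit4, an inhibitor of mTORC1 under stress, 1.04 and 1.12.

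**Figure D4:**
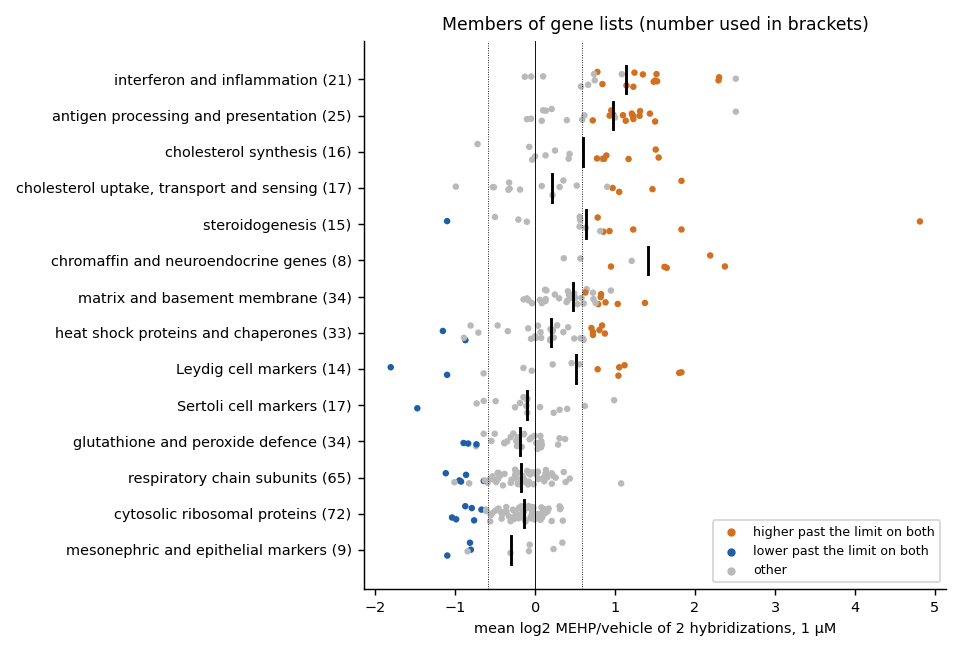
Mean log2 ratio of the 2 hybridizations at 1 µM for every used member of 14 gene lists, 1 point for each gene, with the median as a black bar and the 1.5-fold limit dotted. The interferon, antigen presentation and chromaffin lists have medians of 1.14, 0.98 and 1.41, the cholesterol synthesis list 0.60, and the medians of the last 5 lists lie below 0. The antigen presentation and chromaffin lists were made after the values were seen.

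The lower genes were led, after Insl3, by Rbbp7, a histone-binding subunit of deacetylase complexes, at −1.04 and −1.60, or 2.50-fold. Its close relative Rbbp4 gave −0.77 and −0.61, with 1 dim vehicle channel. Morf4l1, a chromatin subunit of acetyltransferase and deacetylase complexes, gave −0.97 and −1.25. Hdac1, at 0.70 and 0.24, Hdac2, at 0.62 and 0.05, and Sin3a, at 0.37 and 0.96, which belong to the same complexes, were above 0 on both arrays and did not pass the limit on both. Xpo1, the exportin of proteins with a nuclear export signal, gave −0.94 and −1.26, and Dstn, which severs actin filaments, −0.98 and −1.19, with a second probe on opposite sides of 0. Tsx and Cst8, genes expressed in testis, gave −1.14 and −0.99 and −0.92 and −1.21. Thyn1 gave −1.38 and −0.65.

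Genes of translation and of the respiratory chain had medians slightly below 0. Of 72 cytosolic ribosomal protein genes used, 43 were below 0 on both hybridizations and 13 above, counts given without the same share over all genes. Past the limit 6 were lower and none was higher, and the median was −0.15. With normexp background correction, however, the median was 0.40 and 13 were higher. That correction gave a raised floor on 1 array, and with the background capped at the signal of the spot the median was −0.26. Rpl5, which binds the 5S RNA of the ribosome, gave −1.01 and −1.07, Rplp0 of the stalk −0.92 and −1.06, Rpl3 −0.83 and −0.92, Rps14 −0.73 and −0.80, Rpl4 −0.61 and −0.97 and Rpl10a −0.69 and −0.66. Rack1, a scaffold on the small subunit, gave −0.86 and −1.21. Among 65 respiratory chain genes, 5 were lower and none was higher, with a median of −0.17. With the capped background 1 was lower, with loess on uncorrected signals 2 and with normexp none. Of these, 3 belong to the ATP synthase, namely Atp5f1b, its catalytic subunit, at −1.03 and −1.21, Atp5f1a at −0.73 and −1.13, and Atp5mc3 at −0.999 and −0.899. Ndufb11, of complex I, gave −0.91 and −0.83. The shares of lower members, 6 of 72 and 5 of 65, stand beside 3.17% over all genes measured in both channels, and no test was made.

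Metabolic enzymes showed single members past the limit. In the citric acid cycle and at its entry, Idh3a gave −0.95 and −0.72 and Pdhb −0.83 and −1.10. These 2 of 29 used stand beside 2.96% lower over all genes. In glycolysis and the hypoxia response, Ldha gave −0.89 and −1.14, Pgk1 −0.83 and −0.67 and Vegfa −0.79 and −0.62, whereas Adm, a vasodilator peptide that hypoxia induces, was higher at 0.96 and 2.03. Gapdh, at 0.34 and 0.35, and Aldoa, at −0.18 and −0.30, did not pass. With the capped background no gene of these lists passed. Among 34 genes of glutathione and peroxide defence, 3 were lower and none was higher, Mgst2 at −0.81 and −0.66, Prdx4 at −0.62 and −1.06, and Gstm5 at −0.75 and −1.05, and the median was −0.19. The count of 3 in 34 stands beside 2.96% lower over all genes, and with the capped background, normexp or loess on uncorrected signals none passed. Of 28 PPAR targets and fatty acid oxidation genes, 1 was higher, the hormone Fgf21 at 0.80 and 0.61, 1 was lower, Etfa at −1.48 and −1.09, and the median was 0.05. These counts are near the shares over all genes, 3.66% and 2.96%, and with the capped background both were 0. Angptl4, a common PPAR target, gave 0.40 and 0.53, and Cpt1a, the gate of mitochondrial fatty acid oxidation, −0.29 and −0.08.

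Of 9 used members of the mesonephric and epithelial list 3 were lower past the limit, beside 2.96% over all genes used. Cdh1, the epithelial cadherin, gave −0.82 and −0.79, Epcam −0.87 and −0.76 and Cldn4, of the tight junction, −1.10 on both, and the median was −0.31. Krt18, at −0.31 and −0.30, and Krt7, at 0.10 and −0.24, did not pass the limit, and Cldn3, at 0.94 and −0.26, and Pax2, at 0.73 and −0.27, lay on both sides of 0. With the capped background, normexp or loess on uncorrected signals none of the 9 passed. The summed signal of the list was 14279 and 10258 with MEHP and 18029 and 13490 in the pool, and the part of tissue other than testis was not tested. Of the growth genes, Cdkn1c, an imprinted inhibitor of the cell cycle, gave 0.68 and 1.30 and Igfbp5, which binds insulin-like growth factors, 0.96 and 0.88. Ccnb2 of mitosis gave −0.60 and −1.29. No member passed the limit among 7 genes of retinoid metabolism, 11 inhibin, activin and TGF-beta ligands or 16 genes of apoptosis and the p53 response. These zeros are near the 6.62% in either direction over all genes used, and nothing is drawn from them. Inha, at −0.91 and −0.56, passed on the first hybridization alone.

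The 3 testes at 10 µM were read against the vehicle reference as well, so that the doses may share their control RNA and are only given side by side. In testis 2 at 10 µM the MEHP channel was well above background at 0.249% and 1.54% of spots, against 15.4% and 29.8% in the 1 µM testis, so its values are ratios of a dim channel. Over the probes measured in both channels at 1 µM its arrays had median log2 ratios of −2.27 and −1.53, against −0.10 and −0.05 in testis 1 and −0.27 and −0.20 in testis 3, so a value below 0 in testis 2 is common to most genes. Irf7 was 2.38, −1.96 and 2.48 in testes 1, 2 and 3 at 10 µM, beside 2.29 at 1 µM, and Oasl2 2.58, −1.63 and 2.23 beside 2.20. Isg15 was 1.32, −1.59 and 1.27 beside 2.30. Testes 1 and 3 at 10 µM thus lay about as high as the 1 µM testis for Irf7 and Oasl2 and below it for Isg15. Ebp was 1.08, −0.62 and 1.15 beside 1.54, and Idi1 0.60, −2.35 and 0.47 beside 1.51.

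Insl3 was −1.53, −2.24 and −1.58 at 10 µM beside −1.81 at 1 µM, a mean at 10 µM of −1.78 ± 0.39 (SD, n = 3). The 1 µM testis lay below testes 1 and 3 and within the range of the 3 testes only through testis 2, whose MEHP channel was dim. Rbbp7 was −2.30, −2.48 and −3.00 beside −1.32, Cct4 −1.61, −1.88 and −2.91 beside −1.16, Atp5f1b −1.56, −2.20 and −3.46 beside −1.12, and Rpl5 −1.46, −2.92 and −2.83 beside −1.04. For these 4 genes testes 1 and 3 at 10 µM lay below the 1 µM testis, and testis 2 lay near or below the medians of its own arrays. Cyp17a1 was −2.22, −1.60 and −2.07 beside −1.10.

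The adrenal and chromaffin genes were not alike in the testes at 10 µM. Cyp11b1 was 2.04, 0.00 and −0.42 beside 4.81 at 1 µM, Akr1b7 2.10, −0.43 and −0.18 beside 3.95, and Mrap 1.80, −1.50 and −1.78 beside 3.01. Chgb was 2.01, −1.47 and −3.02 beside 2.37, and Star 1.27, −1.08 and −1.86 beside 1.83. Testis 1 at 10 µM was thus above 0 for all 5 genes and testis 3 was below it, while testis 2 is to be read against its shifted medians. Sv2b, at 1.88, −0.61 and 1.88, did not follow this order. Fdx1 was −0.59, −2.38 and −2.29 beside 1.23.

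**Figure D5:**
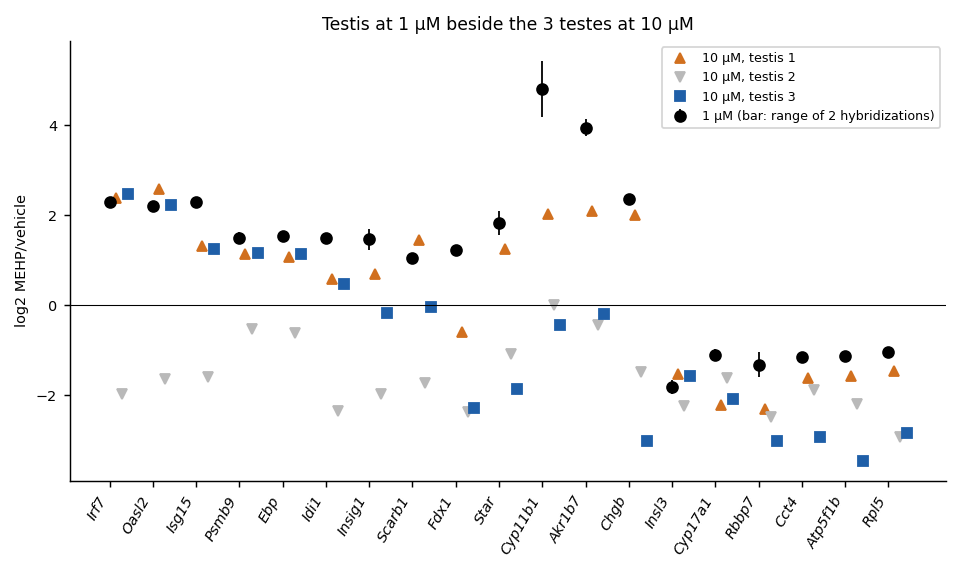
Log2 ratio of MEHP over vehicle of 19 genes in the testis at 1 µM (black, with a bar for the range of 2 hybridizations) and in each testis at 10 µM (triangle up, triangle down and square for testes 1, 2 and 3). Irf7, Oasl2 and Isg15 on the left are high in all testes but testis 2 at 10 µM, Cyp11b1, Akr1b7, Chgb and Star are high at 1 µM and in testis 1, and the genes from Insl3 on lie below 0 in all 4 testes.

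The difference between the doses was tested with limma over all 4 testes, 3 against 1, on 10763 probes, with the lone testis assumed to vary like the others. No probe passed an adjusted p of 0.05, 27 had an unadjusted p under 0.05, and the smallest Benjamini-Hochberg adjusted p was 0.999. Without testis 2 at 10 µM 594 probes had an unadjusted p under 0.05, and the smallest adjusted p was 0.0717. For Fdx1 the difference of 10 µM minus 1 µM was −2.98, with an unadjusted limma p of 0.0130 and an adjusted p of 0.999. For Insl3 the difference was 0.03 and for Irf7 −1.33, with unadjusted limma p of 0.978 and 0.393. The headers place the 1 µM testis and testis 3 at 10 µM on 1 slide, and within it the difference was −3.52 for Fdx1, 0.23 for Insl3 and 0.19 for Irf7.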

How the data were processed

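RNA of cultured fetal rat testes, explanted at gestational day 14.5 and cultured for 72 h, was amplified from 25 ng and hybridized in 2 colours. The reference was RNA of 3 vehicle testes from separate litters. The authors deposited the scanner output of 8 arrays, made with Agilent Feature Extraction (version 9.1 in the submitters' processing notes). Per the file headers it holds the log10 ratio of red over green after background subtraction and dye normalization, a p-value of the Agilent error model for that ratio, the intensity of each channel as mean, local background and processed signal, and flags for each spot. The authors also deposited lists of their own fold changes and p-values, which were not used.

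Control and outlier spots were left out, spots of a probe were averaged, and the log10 ratio was turned to log2 MEHP over vehicle. A probe was well above background in a channel when at least 0.5 of its spots carried that flag. At 1 µM, this held for 15.4% and 29.8% of the spots with MEHP and for 30.1% and 11.6% with vehicle, and precision is limited by there being 2 arrays of 1 testis. Of 41012 probes 17488 had a RefSeq symbol, 10735 of them by accession and 3735 through the symbol of a predicted gene model, whose probe sequences could not be checked here, and others kept the name on the array. Where probes shared a gene, values are those of its brightest probe. A bound ("at least") sets the mean of the bright channel against the lowest signal well above background on each array or the dim probe's own, if higher.

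No test was made at 1 µM. The difference of 10 µM minus 1 µM was fitted per testis with limma 3.58.1 in R 4.3.3 (lmFit and eBayes, two-sided, Benjamini-Hochberg) and was tested on simulated data first. Its p-values rest on the spread among the 3 testes at 10 µM, because the lone testis at 1 µM gives no spread of its own. Other steps used Python 3.11.15, numpy 2.4.6, pandas 2.3.3 and matplotlib 3.10.9. Alternatives were a 2-fold limit, other filters on dim probes, normexp with an offset of 50 and loess, loess alone, median centring, outlier spots kept, either hybridization alone, the median over probes, the error model at 0.01, each 10 µM testis left out, a trend and the slide as a block.

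Genes named were the 12 highest and 12 lowest among those measured in both channels of both arrays and with a current symbol, up to 6 each way with 1 channel at background on both arrays, and members of 34 lists, those past the limit first. The members and lists were chosen with earlier results of these data known, and 5 further lists (adrenal cortex, chromaffin, antigen presentation, CCT and ATP synthase), the motifs and any gene outside this rule were chosen after the values were seen. Some members of these lists are counted but not reported here by name.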

Additional observations from a re-analysis of the deposited data

Results flagged for a closer look

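For 9 of 115 named genes past the limit at 1 µM with a fitted difference, both hybridizations at 1 µM lay on one side of the vehicle pool and all 3 testes at 10 µM on the other. The arrays of testis 2 at 10 µM had median log2 ratios of −2.27 and −1.53 and those of testis 3 −0.27 and −0.20, over the probes measured in both channels at 1 µM, so that values below 0 were common there and the direction of these 9 genes is not a result. In testis 2 Cyp11a1, Ddit4, Hmgcs1 and Fbln1 lay above both medians of its own arrays. For the differences of 10 µM minus 1 µM given here the adjusted p of limma was 0.999 for each, so none passed the test, and the unadjusted limma p ran from 0.0130 for Fdx1 to 0.215 for Cyp11a1.

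Fdx1, at −0.59, −2.38 and −2.29 in testes 1, 2 and 3 at 10 µM, differed by −2.98 and Cyp11a1, at −0.27, −0.37 and −0.60, by −1.19. These proteins work together in the first step of steroid synthesis. The cholesterol enzymes Hmgcs1, at −0.04, −0.80 and −0.70, and Msmo1, at −0.33, −2.15 and −0.97, differed by −1.38 and −2.001. Fbln1 of the matrix, at −0.76, −1.06 and −1.05, differed by −1.75, and Ddit4, at −0.28, −0.04 and −0.41, by −1.32. The class I genes RT1-CE1, RT1-CE2 and RT1-CE3, whose probes may share RNA, differed by −1.84, −2.02 and −2.07. Some values at 10 µM lay close to 0, as for Hmgcs1 and RT1-CE2 in testis 1, at −0.04 and −0.07.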

How the results depend on the processing

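With 1.5-fold on both hybridizations 352 genes were higher and 284 lower, and over the 34 lists 55 members were higher and 32 lower. A 2-fold limit left 93 and 49 genes and 22 and 8 list members, and both channels well above background on both arrays left 136 and 130 genes and 35 and 21 list members. Without a filter on dim probes the genes were 596 and 461, and with the error model 179 and 121. The first hybridization alone gave 787 and 2387 genes and 84 and 100 list members, and the repeat alone 3129 and 903 genes and 162 and 73 list members. Normexp gave 60 and 0 genes and 22 and 0 list members, with 20 of the 352 genes shared. The first percentile of its corrected red signal was 2599 on the repeat array and 84.3 on the first. With the background capped at the spot signal, an alternative chosen after seeing the data, the genes were 86 and 26 and the list members 25 and 6, and all 86 were among the 352. Loess on uncorrected signals gave 66 and 25 genes and 22 and 7 list members. Of 117 named genes past the limit, 2 changed sign under an alternative, Nid2 at −0.013 and Rps14 at 0.89, both with normexp. No gene past the limit passed it in the opposite direction under any of these settings, and the other alternatives moved the counts of genes by less than 1.5 times.

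The difference between doses gave 0 of 10763 probes at an adjusted limma p of 0.05 in all settings. The probes with an unadjusted p under 0.05 numbered 27, and 36, 594 and 13 without testis 1, 2 or 3 at 10 µM, 143 after centring, 112 with normexp, 123 with the capped background, 134 with a trend, 14 with the slide as a block and 5 of 4413 measured in both channels. The cause of these changes was not tested. No paired analysis was possible because there is 1 testis at 1 µM.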

Other observations

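Other genes past the limit at 1 µM that the lists do not hold were chosen for this paragraph after their values were seen, and are given as first and repeat log2 ratio. Interferon-induced genes among them were Rsad2, an antiviral enzyme, at 1.98 and 2.71, Ubd, a ubiquitin-like modifier, at 2.39 and 1.49, Trim25, a ubiquitin ligase of RNA sensing, at 1.46 and 2.21, the GTPase Gbp2, at 1.53 and 1.11, and Irf9, a transcription factor of the interferon response, at 0.64 and 2.05. The complement protease C1r gave 1.48 and 0.95.

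Tsc22d3 gave 0.67 and 0.85, the clock gene Per1 0.90 and 1.28 and the transcription factor Cebpd 0.62 and 0.92. In lipid synthesis, Scd2, a fatty acid desaturase, gave 1.13 and 1.11 and Acly, which makes cytosolic acetyl-CoA, 0.65 and 1.02. Itga1, a collagen receptor chain, gave 2.37 and 2.801 and Cxcr4, the receptor of CXCL12, 1.46 and 1.56. Among the lower genes, Nfe2l2, the factor that drives antioxidant genes, gave −0.75 and −0.69, the initiation factor subunits Eif3e and Eif3g −0.60 and −0.91 and −0.63 and −0.84, and Mrpl17 of the mitochondrial ribosome −0.79 and −1.22.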
